A study of Mus musculus with 18 samples.

Results

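Prefrontal cortex of 5xFAD mice that had received vesicles isolated from human breast milk was compared with prefrontal cortex of 5xFAD mice that had received phosphate-buffered saline (PBS), across all genes of a deposited table of FPKM (fragments scaled by gene length and library size). The 6 libraries of this comparison, 3 per group, were chosen by their labels from the 18 of the series. All mice were male and of the C57BL/6J strain, and both groups carried the 5xFAD transgenes, which express mutated human amyloid precursor protein and presenilin in neurons under the Thy1 promoter. Vesicles (EV) or PBS were injected into a vein every 3 days, 10 times in all, between 5 and 6 months of age. Mice were killed after behavioural tests and perfused with cold PBS. Wildtype C57BL/6J males on the same PBS schedule (3 libraries, WT below) gave the reference level, and shared in the estimate of the spread. The labels do not say that the replicates of a group were separate mice, and the p-values here then cover only the variation among these libraries, some or all of which may be technical. The 18 libraries of the series include no wildtype group given vesicles.

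Extracellular vesicles are membrane-bound particles that cells release and that carry proteins, lipids and RNA. Milk contains them in quantity, and the title of the series names CD36, a fatty acid and scavenger receptor, as cargo. In a brain that accumulates amyloid, microglia take on a disease-associated state, astrocytes become reactive, and a set of genes driven by type I interferon is switched on. Interferon binds its receptor, and transcription factors activated there enter the nucleus and bind a short element in the promoters of antiviral genes. Ifit1, Ifit3, Isg15 and Rsad2 are textbook targets of that route.

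The interferon genes were the pathway list with the lowest median difference here, so the promoters of 4 of its members are shown. Each line gives the 250 bases before the RefSeq gene start on GRCm38.p6, a build other than the GRCm39 named in the submitters' processing notes, read in the direction of the gene. Capitals mark every match to GAAANNGAAA or, on the other strand, TTTCNNTTTC, which is the core of the interferon-stimulated response element. Ifit1 is at chr19:34640639-34640888 on the plus strand, Ifit3 at chr19:34583279-34583528 on the plus strand, Isg15 at chr4:156200819-156201068 on the minus strand and Rsad2 at chr12:26456453-26456702 on the minus strand.
Ifit1: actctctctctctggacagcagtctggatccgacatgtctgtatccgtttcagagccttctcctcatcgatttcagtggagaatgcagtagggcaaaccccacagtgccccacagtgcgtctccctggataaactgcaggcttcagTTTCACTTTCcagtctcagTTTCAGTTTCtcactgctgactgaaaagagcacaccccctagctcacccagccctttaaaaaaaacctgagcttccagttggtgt
Ifit3: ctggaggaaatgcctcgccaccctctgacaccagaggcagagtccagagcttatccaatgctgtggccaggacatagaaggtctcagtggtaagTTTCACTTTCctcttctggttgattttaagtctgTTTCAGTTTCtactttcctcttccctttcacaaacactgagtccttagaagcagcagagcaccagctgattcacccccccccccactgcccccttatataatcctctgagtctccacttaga
Isg15: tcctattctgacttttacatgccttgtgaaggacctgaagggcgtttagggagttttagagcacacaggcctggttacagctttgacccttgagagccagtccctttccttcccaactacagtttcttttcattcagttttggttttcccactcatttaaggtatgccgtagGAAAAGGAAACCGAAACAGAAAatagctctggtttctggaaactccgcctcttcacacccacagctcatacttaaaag
Rsad2: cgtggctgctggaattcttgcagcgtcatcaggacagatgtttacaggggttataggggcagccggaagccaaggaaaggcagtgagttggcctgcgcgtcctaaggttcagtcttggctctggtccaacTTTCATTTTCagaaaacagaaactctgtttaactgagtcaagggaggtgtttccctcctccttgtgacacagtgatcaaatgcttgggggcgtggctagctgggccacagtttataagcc
In Ifit1 the matches begin 104 and 85 bases before the start, and in Ifit3 156 and 122 bases before it. Isg15 holds 3 matches that overlap one another, beginning 78, 72 and 66 bases before the start. Rsad2 holds 1 match, 120 bases before the start, in the orientation of Ifit1 and Ifit3. The bases just after the start were found in an annotated transcript of the gene for Ifit1, Isg15 and Rsad2, but not for Ifit3. Windows from 250 bases before to 50 bases after the start were also searched. Of the 14 tested interferon genes with a window 9 held a match, against 3.53% of all 10410 tested genes with a window. Irf7, Oasl2, Ifi44, Xaf1 and Ifit2, also in the list, had windows without a match. A match is a stretch of letters and not a measured binding site.

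The labelled tissue was checked against marker genes before any comparison, and 1 library went against its label. EV replicate 3 held transcripts that no other cortical library held. Pcp2, a Purkinje cell gene of the cerebellum, stood at 177.5 FPKM in that library and at 0 to 0.35 in the other 8. The granule cell receptor subunit Gabra6 was at 89.8 FPKM against at most 0.133, and the hindbrain position gene En2 at 10.8 against at most 0.131. Ttr, the choroid plexus gene for transthyretin, was at 836 FPKM against 1.56 to 11.6. Summed over the marker lists, cerebellar granule cell genes reached 667 FPKM (36.0 to 47.7 in the other 8), Purkinje and Bergmann genes 970.0 (137.5 to 176) and choroid plexus genes 875 (5.29 to 14.2). Cortical genes were present too. The 9 upper layer neuron genes summed to 103 FPKM, against 151 to 188 in the others. The 12 deep layer neuron genes summed to 90.3 FPKM, inside the range of the others (87.6 to 114). In EV replicate 3, 258 genes were more than 2-fold above all 8 other libraries. In every other library 0 to 7 genes were. Counts of called genes and medians of lists are therefore given with and without EV replicate 3. Counts of genes that separate the groups are given with all libraries, and for some lists also without EV replicate 3. Where a log2 difference is printed for a single gene, it is also given without that library if it moved by more than 1.5 times. Genes described by their library values alone may have moved as much.

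**Figure D1:**
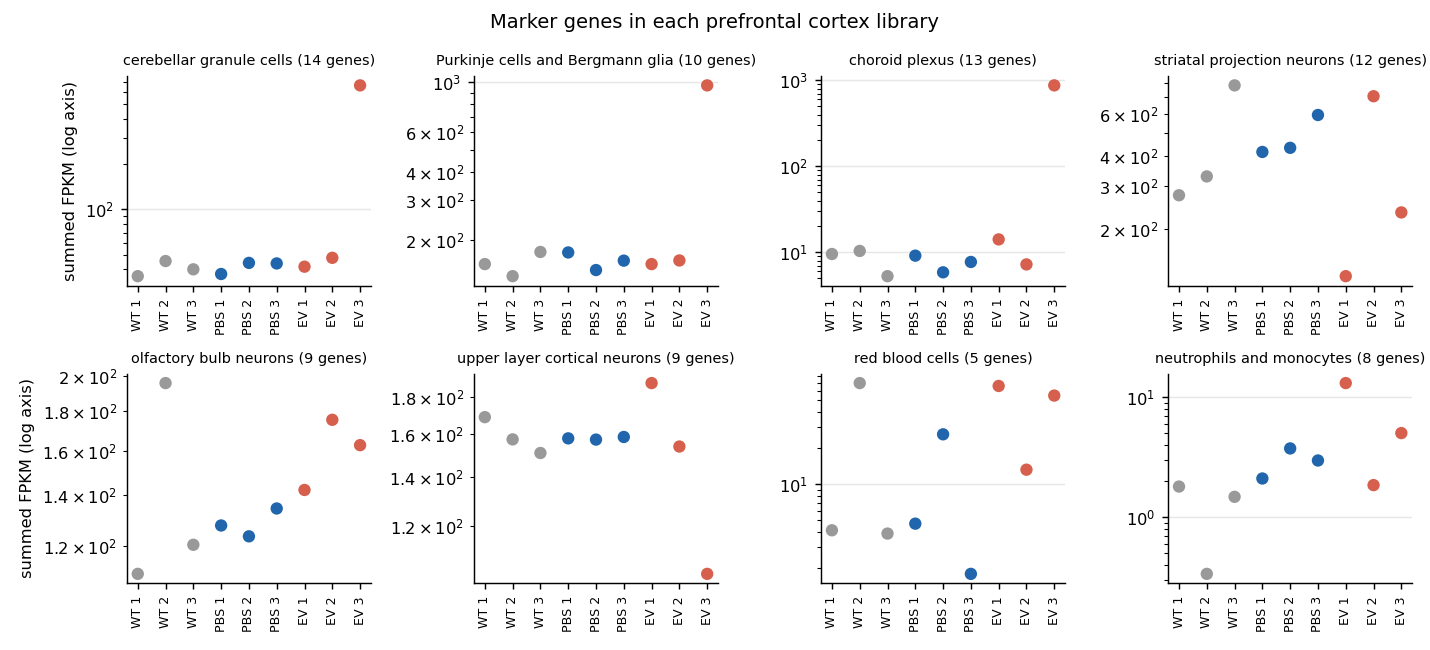
Summed FPKM (log axis) of 8 marker lists in each of the 9 prefrontal cortex libraries, 1 point per library (grey, wildtype PBS; blue, 5xFAD PBS; red, 5xFAD EV). EV replicate 3 stands apart in the cerebellar and choroid plexus panels, and the EV libraries differ among themselves in striatal genes, from 128 FPKM in replicate 1 to 708 in replicate 2.

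Other regional and blood markers also differed between libraries of a group. Striatal projection neuron genes summed to 128, 708 and 234 FPKM in EV replicates 1 to 3, to 416, 433 and 592 in PBS and to 276, 330 and 785 in WT. Olfactory bulb genes summed to 142, 175.5 and 163 FPKM in EV against 128, 124 and 134 in PBS, with WT replicate 2 at 196. Red blood cell genes summed to 65.6, 13.2 and 54.6 FPKM in EV, 4.68, 26 and 1.79 in PBS, and 4.12, 69.4 and 3.87 in WT. The 6 libraries held 30581316 to 34938330 reads in the listed genes, and 1 read on a gene of typical length is far below the lowest level tested.

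No gene was called in this comparison with or without EV replicate 3. Genes were tested with limma on log2(FPKM + 0.5) if 3 or more of the 9 cortical libraries reached 0.5 FPKM, and a gene was called at a Benjamini-Hochberg adjusted p under 0.05. With all libraries, 0 of 13055 genes were called (0%) and the smallest adjusted p was 0.822. At an unadjusted p under 0.05 there were 616 genes, 4.72% of those tested, 412 higher with EV and 204 lower. Without EV replicate 3, 0 genes were called (0%), the smallest adjusted p was 0.718, and 337 genes (2.58%) had an unadjusted p under 0.05. Limma's voom on the reads recovered from the FPKM also called 0 genes, with 636 and 303 genes at an unadjusted p under 0.05 with and without that library. Leaving out 1 library moved these numbers: without PBS replicate 1, 1 gene was called (Clec4e, adjusted p = 0.048), and the count at an unadjusted p under 0.05 was 1316 without EV replicate 1, 1060 without EV replicate 2 and 325 without PBS replicate 2. The median 95% confidence interval of a gene reached 0.27 on the log2 scale to either side of its estimate, so many differences smaller than that could not be told from 0 here. The median log2 difference over all genes was 0.02 with all libraries and 0.01 without EV replicate 3.

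Because no gene passed, "higher" and "lower" below give the direction of an estimate and not a call. Every adjusted p in this comparison lies at or above those 2 smallest values. In bulk tissue, fewer cells of a type and less RNA per cell cannot be told apart. For each list, the values are the number of genes tested, the median log2 difference (EV minus PBS), and the number of genes with all 3 EV libraries above, or below, all 3 PBS libraries. Over all 13055 genes, all EV libraries lay above all PBS libraries for 6.68% and below for 3.94%. For EV replicates 1 and 2 alone against the 3 PBS libraries, these shares were 9.13% and 7.07%.

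**Figure D2:**
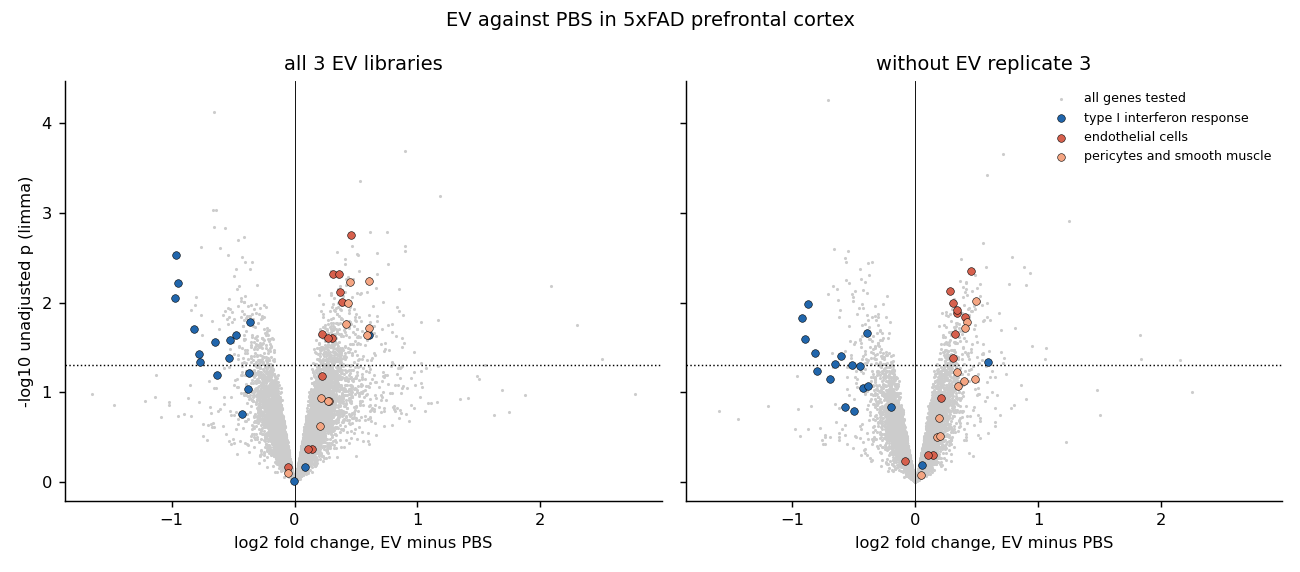
Log2 fold change (EV minus PBS) against -log10 of the unadjusted limma p for the 13055 genes tested, with all libraries (left) and without EV replicate 3 (right). The dotted line is an unadjusted p of 0.05. Interferon genes (blue) lie mostly to the left and vascular genes (red and orange) mostly to the right, and no gene has an adjusted p under 0.05 in either panel.

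Most type I interferon response genes had lower levels in EV cortex than in PBS cortex, though none was called. Of the 20 genes in the list 19 were in the table and 18 were tested, and 16 of these had a log2 difference below 0. The median was -0.53 with all libraries and -0.54 without EV replicate 3, beside medians over all genes of 0.02 and 0.01. All EV libraries lay below all PBS libraries for 14 of 18 genes, against 3.94% of all genes, and EV replicates 1 and 2 lay below all PBS libraries for 16 of 18, against 7.07%. At an unadjusted p under 0.05 there were 12 of 18 genes with all libraries and 9 without EV replicate 3, and 0 after adjustment over all genes. Across the 19 genes in the table, FPKM summed to 88.3, 101 and 102 in the EV libraries, to 123, 145 and 149 in the PBS libraries and to 107, 93.6 and 48.1 in WT. The 3 EV libraries thus lay below the 3 PBS libraries and inside the range of the wildtype ones.

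Irf7, the transcription factor that amplifies the interferon response, stood at 2.23, 3.32 and 2.59 FPKM in EV replicates 1 to 3 and at 4.91, 6.51 and 5.58 in PBS. All EV libraries were below all PBS libraries, and the log2 difference was -0.95 (SE 0.27, adjusted p = 0.822, limma). Oasl2, an oligoadenylate synthetase-like antiviral protein, was at 2.75, 3.98 and 2.77 FPKM with EV and 6.15, 6.50 and 7.22 with PBS. The groups again did not overlap, and its log2 difference of -0.97 (SE 0.30) was the lowest of the list. Ifi44 was at 0.274, 0.699 and 0.300 FPKM against 0.942, 1.24 and 1.69, which is -0.96 (SE 0.25) on the log2(FPKM + 0.5) scale. For these 3 genes the estimates without EV replicate 3 were -0.92, -0.90 and -0.87.

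The genes whose promoters are printed above went in both directions. Ifit1, which binds foreign RNA, was at 2.75, 2.84 and 2.81 FPKM with EV and at 4.36, 5.13 and 6.70 with PBS (log2 difference -0.82, SE 0.30, adjusted p = 0.822, limma). Its EV libraries were nearly equal and its PBS libraries were spread. Ifit3, a partner of Ifit1, was at 8.08, 10.8 and 9.48 FPKM against 12.5, 15.4 and 17.4 (-0.64, SE 0.25). Isg15, the ubiquitin-like modifier, was at 5.28, 6.28 and 3.60 FPKM against 7.73, 8.87 and 9.87 (-0.77, SE 0.34, and -0.57 without EV replicate 3). Both had every EV library below every PBS library. Rsad2, the antiviral enzyme viperin, was the exception, at 1.83, 2.35 and 2.15 FPKM with EV and 1.49, 1.06 and 1.12 with PBS (0.60, SE 0.23). Its EV libraries all lay above its PBS libraries.

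Other effectors of the pathway were mixed. Bst2, the membrane protein tetherin, was at 9.63, 7.96 and 9.85 FPKM with EV and at 12.2, 11.4 and 12.2 with PBS, a log2 difference of -0.37 (SE 0.20), and did not overlap between groups. Stat2 was at 5.00, 4.59 and 9.05 FPKM against 5.37, 5.31 and 6.01, so that EV replicate 3 alone was high and the difference went from 0.09 to -0.20 when it was left out. Ifitm3, the most abundant member, was at 25.7, 29.6 and 32.5 FPKM against 31.4, 44.8 and 43.2, and the groups overlapped. Ifit2 was at 5.12, 5.45 and 4.62 FPKM against 5.01, 4.85 and 5.36, with the EV and PBS libraries mixed.

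The members Oas1a, Usp18, Ifi27l2a, Trim30a, Xaf1 and Rtp4 had log2 differences from -0.78 (Ifi27l2a) to -0.37 (Xaf1), each with all EV libraries below all PBS libraries. Oas2 was not tested because of its low level, at 0.147 to 0.171 FPKM with EV and 0.203 to 0.372 with PBS. Ifit and Oas genes have near-identical relatives, and how reads shared between such copies were counted is not given in the sources used here, so values within these families are uncertain between members. Outside the list, 358 tested genes carried the promoter element, and for 8.66% of them all EV libraries lay below all PBS libraries, against 3.69% of the 10038 genes with a window and no match. Their median log2 difference was -0.01, against 0.02 for the genes with no match (-0.01 and 0.01 without EV replicate 3). All EV libraries lay above all PBS libraries for 6.98% of the 358 and for 6.69% of the genes with no match. EV replicates 1 and 2 lay below all PBS libraries for 12.8% of the 358 and for 6.81% of the genes with no match. Only list members were left out of the 358, which may hold other interferon-induced genes.

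**Figure D3:**
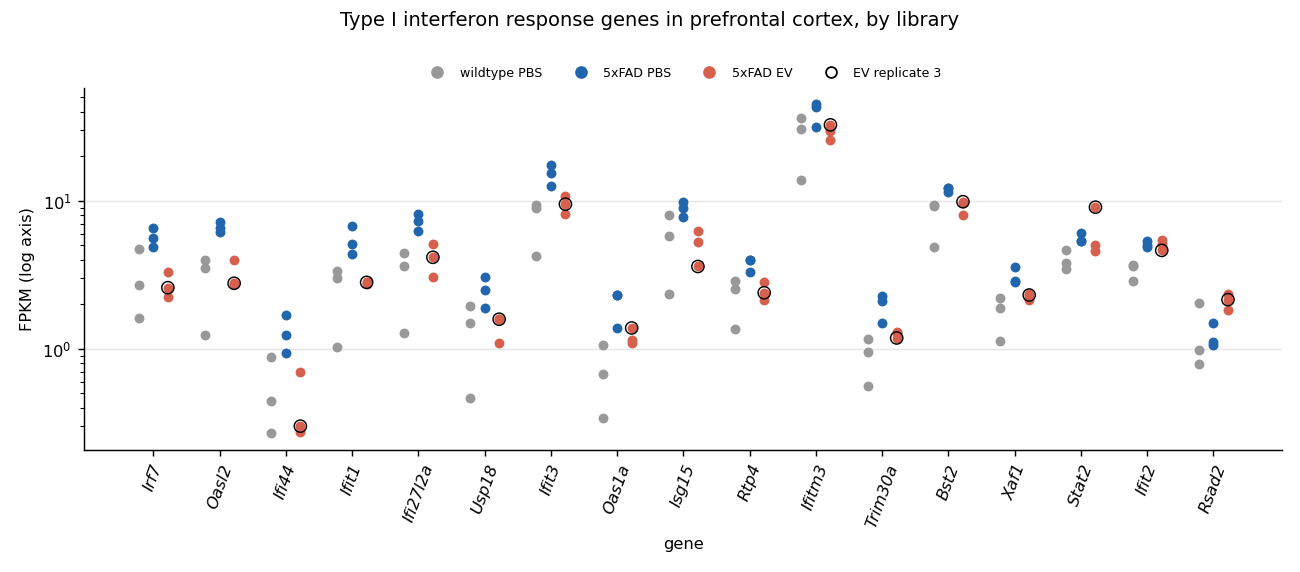
FPKM (log axis) of 17 tested interferon response genes in each library, 1 point per library, ordered by the difference without EV replicate 3. The red EV points lie below the blue 5xFAD PBS points for most genes, Rsad2 at the right end is reversed, and the circled EV replicate 3 is high for Stat2.

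Markers of immune cells were set beside this. The 14 microglial genes summed to 1140 FPKM in EV replicate 1, at the level of the PBS libraries (1103 to 1143), and to 906 and 823 in EV replicates 2 and 3. In EV replicate 1, where microglial genes were at the PBS level, interferon genes were at 88.3 FPKM, the lowest of the 6. Red blood cell genes, highest in EV replicate 1 (65.6 FPKM), were lower in EV replicate 2 (13.2), where the interferon sum was 101. The part of either in the interferon values was not tested.

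Vascular genes went the other way. Endothelial cells line the vessels and carry the transporters of the blood-brain barrier, and pericytes and smooth muscle cells (mural cells) wrap around them. Of 12 endothelial genes tested, 11 were higher with EV, with a median log2 difference of 0.29 with all libraries and 0.30 without EV replicate 3. All EV libraries lay above all PBS libraries for 7 of 12 genes (6.68% over all genes), and EV replicates 1 and 2 for 8 of 12 (9.13%). At an unadjusted p under 0.05 there were 8 of 12 genes in both fits, and none after adjustment. Of 11 mural genes tested, 10 were higher, with a median of 0.42 with all libraries and 0.35 without EV replicate 3, and 5 of 11 did not overlap in either. The summed levels were 194, 159 and 168 FPKM with EV and 136, 150 and 158 with PBS for endothelial genes, and 101, 84.4 and 103.5 against 60.8, 72.7 and 76.2 for mural genes. EV replicate 2 exceeded PBS replicate 3 only narrowly in the endothelial sum.

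Slco1a4, an organic anion transporter of the barrier, was at 16.9, 13.8 and 15.4 FPKM with EV and at 10.5, 10.4 and 12.1 with PBS. The groups did not overlap, and the log2 difference was 0.46 (SE 0.11, adjusted p = 0.822, limma). The efflux pump gene Abcb1a was at 9.85, 8.65 and 9.72 FPKM against 7.11, 6.41 and 8.12 (0.36, SE 0.10). The glucose transporter gene Slc2a1 was at 39.0, 35.7 and 32.9 FPKM against 28.4, 30.3 and 33.2, so EV replicate 3 was inside the PBS range and the difference was 0.22 with it and 0.28 without it. Among receptors and adhesion molecules, Pecam1 (0.31), the vascular endothelial growth factor receptors Flt1 (0.31) and Kdr (0.37) and the angiopoietin receptor Tek (0.39) had no overlap between groups. Itm2a, the most abundant of the list, was at 44.5, 40.1 and 37.0 FPKM against 30.6, 33.1 and 36.7. The tight junction gene Cldn5 (23.4, 15.3 and 19.0 FPKM against 15.2, 21.1 and 15.4) and Ly6c1 (25.8, 18.4 and 23.2 against 19.8, 24.8 and 25.3) overlapped.

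Among mural genes, Myh11, the smooth muscle myosin, was at 1.87, 1.71 and 2.87 FPKM with EV and at 0.978, 1.18 and 1.5 with PBS (log2 difference 0.61, SE 0.17, and 0.42 without EV replicate 3). The pericyte gene Rgs5 was at 33.1, 22.2 and 24.1 FPKM against 19.3, 18 and 20.2 (0.44, SE 0.14). Vtn, vitronectin, was at 41.4, 37.0 and 46.1 FPKM against 26.3, 33.5 and 32.9 (0.42, SE 0.15). In these 3 genes, and in Tagln and Des, every EV library was above every PBS library. Acta2, smooth muscle actin, overlapped, at 6.61, 7.94 and 11.4 FPKM against 3.83, 6.03 and 6.67. EV replicate 3 was the highest library for Myh11, Vtn and Acta2, and Higd1b was at 1.69, 0.882 and 0.930 FPKM against 1.25, 0.871 and 1.51, with no separation.

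**Figure D4:**
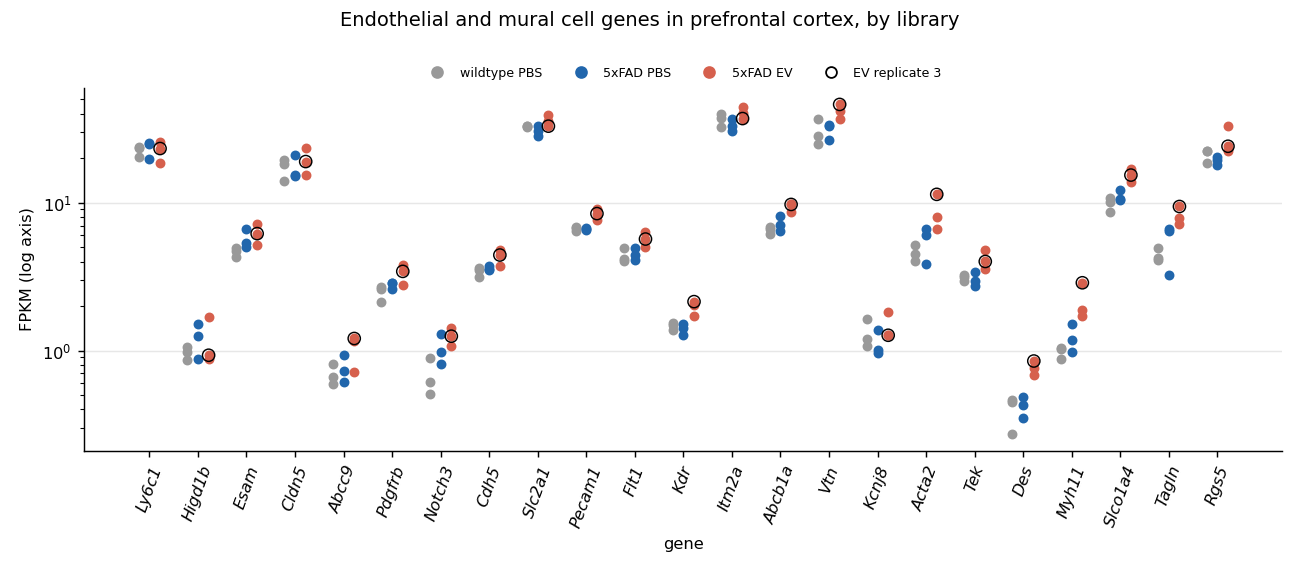
FPKM (log axis) of the 23 tested endothelial and mural genes in each library, 1 point per library, ordered by the difference without EV replicate 3. Red EV points lie above blue 5xFAD PBS points for 12 of the 23 genes, and Ly6c1, Higd1b and Cldn5 show mixed groups.

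Blood and regional genes also differed in the libraries with high vascular genes, and their part in the vascular values was not tested. Of the 5 red blood cell genes, all were higher with EV, with a median log2 difference of 2.09 (1.83 without EV replicate 3), and 3 of 5 did not overlap. The beta globin gene Hbb-bs was at 38.7, 6.93 and 28.3 FPKM with EV and at 1.98, 9 and 1.46 with PBS, so that EV replicate 2 lay below PBS replicate 2. WT replicate 2 reached 45.7. Hbb-bs (SE 1.08 on the log2 scale) and the other globin genes have near-identical copies. Olfactory bulb neuron genes had a median of 0.80 (0.71 without EV replicate 3), with all EV libraries above all PBS libraries for 6 of 9 (6.68% over all genes). EV replicates 1 and 2 lay above all PBS libraries for 7 of 9 (9.13%). Th, tyrosine hydroxylase, was at 10.1, 12.3 and 14.1 FPKM with EV, at 4.86, 4.65 and 5.92 with PBS and at 16.4 in WT replicate 2. Doc2g was at 18.6, 27.5 and 26.4 FPKM against 13.5, 9.44 and 13.1, with WT replicate 2 at 37.6.

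Striatal genes had a median of -0.85 with all libraries and -0.66 without EV replicate 3, and 12 of 12 were lower, but for 0 of 12 did the groups separate. Penk, which encodes enkephalin, was at 48.1, 263 and 86.2 FPKM with EV and at 141.0, 155.0 and 209 with PBS. EV replicate 2 was above all PBS libraries and the other EV libraries below them. Neutrophil genes were uneven too, with EV replicates 1 and 3 above the PBS libraries and EV replicate 2 below them (sums of 13.1, 5.03 and 1.85 FPKM against 2.10 to 3.74). S100a9 was at 4.37, 0.276 and 2.08 FPKM with EV and at 0.310, 1.64 and 1.11 with PBS.

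Microglial genes were lower on average with EV, and EV replicate 1 did not share this. The 14 genes of microglia in any state had a median log2 difference of -0.24, and -0.15 without EV replicate 3, and 14 of 14 and 13 of 14 were below 0. All EV libraries lay below all PBS libraries for 2 of 14 (3.94% over all genes), and EV replicates 1 and 2 for 3 of 14 (7.07%). The lysosomal protease gene Ctss was at 211, 162 and 155.5 FPKM with EV and at 207, 210.5 and 192 with PBS. The signalling adaptor gene Tyrobp was at 129.8, 107.9 and 90.5 FPKM against 131, 130.8 and 124. In both, EV replicate 1 was at the PBS level and EV replicates 2 and 3 were below it. The 15 homeostatic genes had a median of -0.17 (-0.07 without EV replicate 3).

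The 32 disease-associated microglia genes had a median log2 difference of -0.11 (-0.07 without EV replicate 3). Of these, 21 were below 0 and 11 above it (23 and 9 without EV replicate 3). All EV libraries lay below all PBS libraries for 5 of 32 (3.94% over all genes), and the members named next were picked from the lower ones. Cd52, a surface glycoprotein of immune cells, was at 20.5, 19.4 and 16.2 FPKM with EV, at 27.8, 26.8 and 31.3 with PBS and at 3.67 to 5.90 in WT. The groups did not overlap, and the log2 difference was -0.60 (SE 0.15, adjusted p = 0.822, limma). Cst7, cystatin F, was at 65.4, 46.9 and 50.5 FPKM against 78.4, 66.4 and 70 (-0.41, SE 0.18), and PBS replicate 2 was close to EV replicate 1. The lipid receptor gene Trem2 was at 50.8, 41.6 and 39.5 FPKM against 57.4, 53.5 and 52.9 (-0.32, SE 0.17). Lgals3bp, with a difference of -0.44, also separated the groups. Levels of Cst7 and Trem2 in all EV libraries were far above wildtype: Cst7 was at most 0.586 FPKM and Trem2 at most 12.4 FPKM in WT.

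Complement and antigen presentation genes had medians nearer to 0 than the interferon list. Complement genes (12 tested) had a median of -0.12 (-0.14 without EV replicate 3), and 2 of 12 separated the groups downward. C1qa, a chain of the first complement component, was at 138, 112 and 99.3 FPKM with EV and 146, 144 and 141 with PBS (-0.31, SE 0.14, and -0.20 without EV replicate 3). Of 10 genes of MHC class I presentation the median was -0.07 (-0.09 without EV replicate 3), with 2 of 10 below throughout. Tap1, the peptide transporter, was at 1.76, 1.92 and 1.65 FPKM against 2.25, 2.07 and 2.15, and H2-T23 differed by -0.28 (-0.19 without EV replicate 3). B2m, the shared light chain, was at 349, 313 and 288 FPKM against 356, 395 and 339.7, with overlap. Scavenger and phagocytic receptor genes (15 tested) had a median of -0.08 (-0.008 without EV replicate 3), and 6 of 15 were above 0. The 1 member of that list below throughout was the Fc receptor gene Fcgr1. It was at 3.22, 3.01 and 3.02 FPKM against 4.01, 4.15 and 4.56 (-0.40, SE 0.11), with no overlap. Class II genes (6 tested) had a median of 0.08, and 0.15 without EV replicate 3. Reactive astrocyte genes (13 tested) had a median of 0.07, and 0.02 without that library. Gfap, the astrocyte filament protein, was at 113, 119.7 and 114 FPKM with EV and at 163, 116 and 137 with PBS, with overlap.

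Neuronal and activity-dependent genes had small medians, and none was called. Presynaptic genes (23 tested) had medians of -0.06 and -0.03, and postsynaptic genes (24 tested) -0.01 and 0.05, with and without that library. Immediate early genes, which neurons transcribe within minutes of firing, had medians of -0.16 and -0.06 over 20 genes, and 0 of 20 had all EV libraries below all PBS libraries. Egr1 was at 29.3, 51.2 and 26.9 FPKM with EV, at 32.3, 41.9 and 68.1 with PBS and at 114 to 167 in WT. The phosphatase gene Dusp5 was the 1 member with all EV libraries above all PBS libraries, at 4.83, 4.82 and 12.4 FPKM against 2.81, 3.41 and 4. Glutamatergic neuron genes had medians of -0.18 and -0.02, and their summed level was lowest in EV replicate 3, at 1611 FPKM against 2109 to 2691 in the other 5 libraries of the comparison.

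The mouse genes App, Thy1 and Cd36 were looked at next. App was at 100.4, 99.0 and 94.5 FPKM with EV and at 102, 100.3 and 98.95 with PBS (log2 difference -0.04, SE 0.07, adjusted p = 0.90, limma, and -0.01 without EV replicate 3). Its 95% interval ran from -0.18 to 0.11. App here is the mouse gene, and whether reads of the human transgene were counted on it was not tested. The 15 amyloid precursor processing genes, App among them, summed to 1077, 1079 and 1069 FPKM in PBS and to 1100, 1077 and 1052 in WT. Thy1, on which reads of the transgene cassettes may be counted, was at 1134, 936 and 768 FPKM against 1094, 1151 and 1048, with EV replicate 3 lowest, and WT at 433 to 494. Cd36 was at 1.47, 0.540 and 0.549 FPKM with EV, at 0.169, 1.04 and 0.991 with PBS and at 0.351 to 0.452 in WT. EV replicate 1 was the highest and PBS replicate 1 the lowest of the 6, and the difference of 0.16 (SE 0.33, adjusted p = 0.91, limma) was 0.31 without EV replicate 3 and turned with the libraries used. These are mouse transcripts and say nothing of human CD36 protein carried by vesicles. Fatty acid uptake and oxidation genes (28 tested) had medians of 0.05 and -0.002, with 1 of 28 above and 3 of 28 below throughout (6.68% and 3.94% over all genes). For EV replicates 1 and 2 alone these counts were 1 of 28 and 5 of 28 (9.13% and 7.07%).

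Amyloid precursor processing genes (15 tested) had a median of 0.07, amyloid degradation genes (9 tested) -0.02 and lysosomal genes (27 tested) -0.08. Without EV replicate 3 these medians were 0.02, -0.09 and -0.05. Housekeeping lists had small, one-sided differences: 38 of 38 ribosomal protein genes were lower, with a median of -0.11, and 34 of 38 without EV replicate 3, with a median of -0.06. For nuclear genes of oxidative phosphorylation, 28 of 32 were lower, with a median of -0.05 (29 of 32 and also -0.05 without EV replicate 3). When single libraries were left out, this median ran from -0.097 to 0.0087, and the ribosomal one from -0.16 to -0.03. When they were left out in addition to EV replicate 3, the ranges were -0.086 to 0.017 and -0.10 to 0.024. In both lists PBS replicate 2 had the highest sum of the 6 libraries, at 13110.0 FPKM for ribosomal genes against 9860.0 to 11630.0, and at most 1 gene per list separated the groups.

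**Figure D5:**
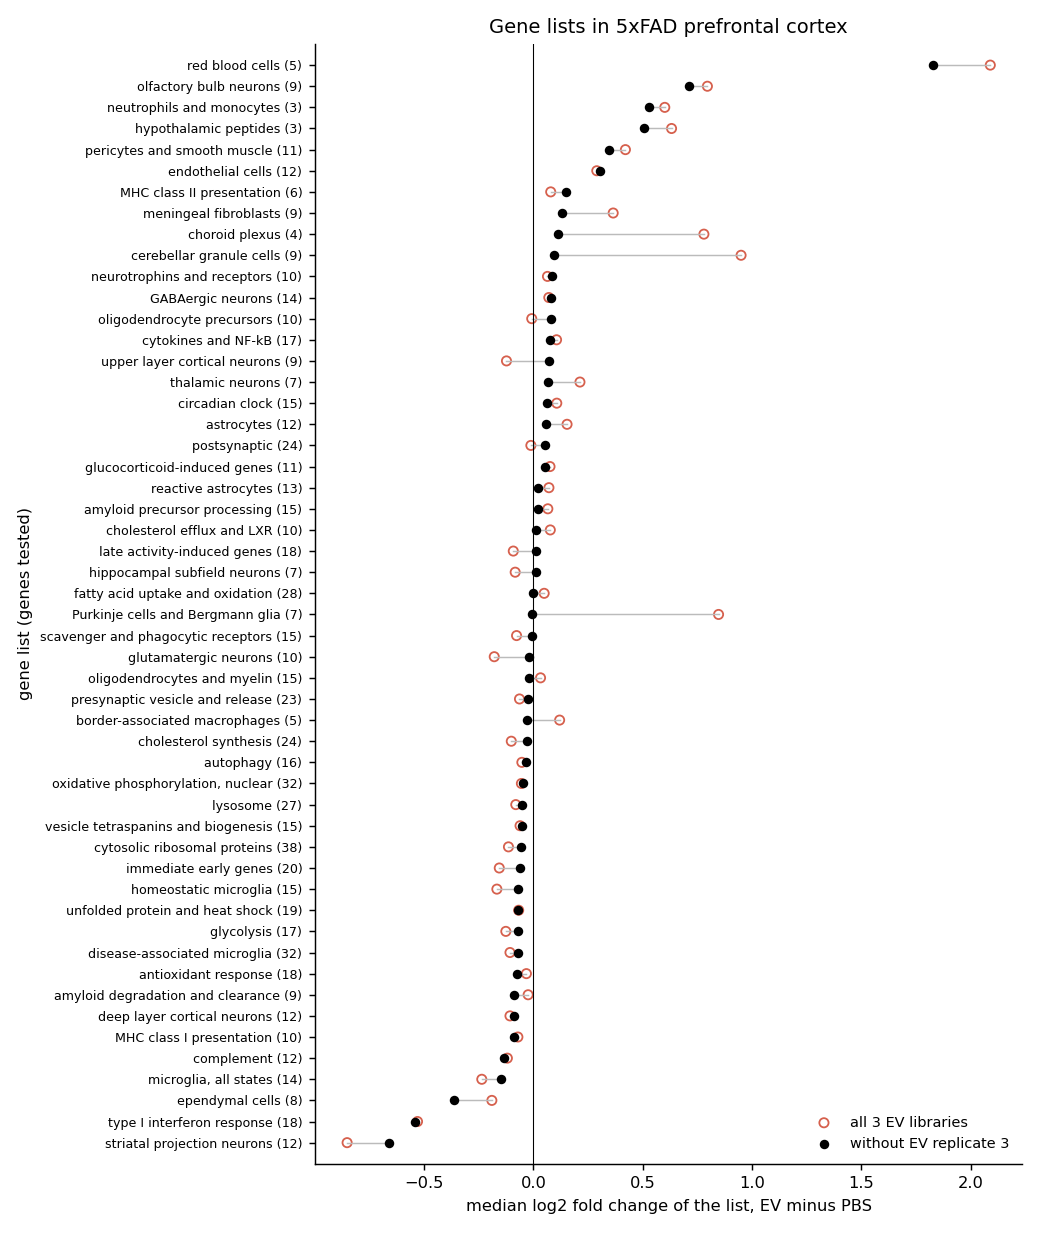
Median log2 fold change (EV minus PBS) of each gene list with at least 3 genes tested, with all libraries (open circles) and without EV replicate 3 (filled). The interferon list stands at -0.54 and the endothelial and mural lists at 0.30 and 0.35 without that library, while cerebellar and choroid plexus lists shift toward 0.

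Single genes were taken next from those whose EV replicates 1 and 2 did not overlap the 3 PBS libraries. The 15 of smallest p without EV replicate 3 in each direction follow, and none was called. Isoc2b, an isochorismatase family gene, had the smallest, at 2.19, 2.48 and 2.68 FPKM with EV, 4, 4.14 and 4.29 with PBS and 3.42 to 3.96 in WT. Each group was tight and they did not overlap (log2 difference -0.71, SE 0.10, adjusted p = 0.718, limma, and -0.66, adjusted p = 0.822 with all libraries). Plac9a was at 10.7, 12 and 16.9 FPKM against 6.41, 7.96 and 5.95 (0.71, SE 0.12), and Tmem254a at 19.9, 17.6 and 16.6 against 12.2, 13.5 and 11.3 (0.59, SE 0.11). For both, the wildtype libraries (10.6 to 12.3 and 14.6 to 17.9 FPKM) lay above the 5xFAD PBS ones. Isoc2b, Plac9a, Tmem254a, Srp54b and H4c9 have near-identical copies in the mouse genome, so their values are uncertain between copies.

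Several of the 15 lower genes encode immune proteins. Zbp1, a sensor of nucleic acids, was at 0.469, 0.563 and 0.503 FPKM with EV and at 1.01, 1.19 and 1.12 with PBS (log2 difference -0.66, SE 0.16). The GTPase gene Ifi47 was at 0.699, 0.892 and 0.810 FPKM against 1.18, 1.63 and 1.49. Lgals9, galectin 9, was at 9.69, 7.39 and 7.18 FPKM against 12.4, 12.9 and 13, and Ifi35 at 1.97, 2.45 and 2.78 against 3.10, 4.44 and 3.65. Separation of EV replicates 1 and 2 from the 3 PBS libraries was a condition of the choice in both directions. It adds nothing to the p of these genes. Pdcd1, the PD-1 receptor, was at 0.778, 0.450 and 0.415 FPKM with EV, at 1.31, 1.12 and 0.981 with PBS and at most 0.0495 in WT. The oxidase subunit gene Ncf4 differed by -0.49. The other lower genes were Nubpl (-0.55), Idnk (-0.35), the polymerase subunit gene Pold2 (-0.38), Wdr78 (-0.45), the calpain gene Capn3 (-0.38), the DNA glycosylase gene Nthl1 (-0.44), H4c9 (-0.67, and -0.33 with all libraries) and Zswim7 (-0.43). These are estimates without EV replicate 3.

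Of the 15 higher genes, Slco1a4 and Slc2a1 are in the endothelial list. Adgrl4, an adhesion receptor of endothelium, was at 6.33, 5.89 and 6.02 FPKM with EV and at 4.51, 4.63 and 4.24 with PBS (log2 difference 0.41, SE 0.12). Reck, a membrane inhibitor of metalloproteinases, was at 2.99, 2.89 and 3.38 FPKM against 1.91, 1.94 and 2.46, and Ltbp4, a matrix protein that binds latent TGF-beta, at 9.51, 8.97 and 8.73 against 6.74, 6.59 and 7.75. Socs3, an inhibitor of cytokine receptor signalling, was at 1.15, 1.24 and 1.18 FPKM against 0.808, 0.756 and 0.747. None of these 4 overlapped between groups. The kinase gene Map3k1 (0.49), the phosphatase gene Ptpro (0.53) and Cytl1 (0.90) also separated. Hes1 (0.38), Zfp941 (0.36), Neurl2 (0.41) and Srp54b (0.76) did so only without EV replicate 3, and with all libraries their estimates were 0.19, 0.20, 0.28 and 0.40. In EV replicate 3 Hes1 was at 3.60 FPKM against 5.97 and 5.32 in the other EV libraries.

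The hippocampus of the same treatment groups gave the same comparison in 6 other libraries, which may come from the same mice. The interferon list had a median log2 difference of -0.89 there, with 17 of 18 genes below 0, beside a median of -0.02 over all 13574 genes. Other lists were lower there too: choroid plexus genes had a median of -1.22 (13 of 13 below 0), meningeal fibroblast genes -0.85 (10 of 10), border-associated macrophage genes -0.66 (7 of 7) and MHC class I presentation genes -0.40 (10 of 10). Their part in the hippocampal interferon values was not tested. Irf7 was at 2.86, 5.15 and 3.87 FPKM in hippocampal EV libraries and at 6.15, 10.1 and 10.6 in PBS ones. Here too the groups did not overlap (-1.08, SE 0.36, adjusted p = 0.82, limma). The vascular lists did not go the same way: hippocampal medians were -0.07 for endothelial and -0.29 for mural genes. Acta2 was at 5.24, 4.64 and 6.57 FPKM in hippocampal EV libraries and at 14.3, 19.5 and 5.48 in PBS ones, so that PBS replicate 3 was inside the EV range. Its difference between tissues, 1.64 (SE 0.57), had an adjusted p of 0.99 in limma. In that test of tissue differences 0 of 13574 genes were called (0%), with and without EV replicate 3 of prefrontal cortex. An unadjusted p under 0.05 was found for 680 genes, and for 327 without that library. No EV effect was thus shown to differ between the tissues.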

How the data were processed

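The labels' protocols name Trizol for total RNA, the VAHTS Universal V5 library kit and NovaSeq sequencing. The authors deposited 1 table of FPKM with 18683 genes and 18 libraries, whose columns all matched a sample by name. The submitters' processing notes list fastp, HISAT2, HTSeq and GRCm39, with no version or role. Annotation, strand and the counting of shared reads: not given in the sources used here.

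Reads behind the deposited FPKM were recovered, because the values of a gene are whole multiples of 1 step (100% of genes, relative tolerance 1e-06). The reported tests, other than the voom alternative, ran on log2(FPKM + 0.5), which understates fold changes of low genes. Genes reaching 0.5 FPKM in 3 or more of the 9 cortical libraries (13055) were fitted in limma 3.58.1 (R 4.3.3, eBayes with trend, two-sided), with 1 mean per group over all 9 libraries and Benjamini-Hochberg adjustment over all genes tested. The same fit was made without EV replicate 3, and tissue differences came from all 18 libraries. The code was tested on simulated data.

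The comparison and its 54 gene lists were chosen with earlier results of these data known. Named by rule were App, Thy1 and Cd36, and the 15 genes of smallest p without EV replicate 3 in each direction. The 15 were drawn only from genes whose EV and PBS libraries did not overlap once EV replicate 3 was left out. Overlapping genes were passed over whatever their p. The 15 also had a mean of 1 FPKM or more in the higher group, and unnamed genes were left out. The most abundant member of lists described singly was named by rule too. 1 member of the interferon list enters its counts and is not reported here singly. Other members, and Clec4e, were chosen after their values were seen. Alternatives were other pseudocounts, filters and scalings, voom on the recovered reads, only the groups compared, the replicate number as a block, and leaving out each library. Promoter windows are from RefSeq on GRCm38.p6.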

Additional observations from a re-analysis of the deposited data

How the results depend on the processing

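The groups have 3 libraries each, and 1 EV library goes against its tissue label. Genes under 0.5 FPKM in most libraries were not tested. The count of called genes was 0 in both fits under every setting tried except 1. Without PBS replicate 1 it was 1 with all EV libraries (Clec4e, log2 difference 1.52, adjusted p = 0.048, limma), so leaving out 1 library gave 0 to 1 called genes. The cause was not tested, but Clec4e was higher in that library (0.506 FPKM) than in the other PBS libraries. In those Clec4e lay near 0 FPKM, and its estimate with all EV libraries ran from 0.76 to 4.79 over the alternatives. Without PBS replicate 1 and EV replicate 3 together, its adjusted p was 0.0738. Deviations from the group mean in same-numbered EV and PBS libraries had correlations of 0.005, -0.03 and 0.16. Those of differently numbered libraries ran from -0.23 to 0.18. With 3 libraries per group, 1 of them against its label, these values cannot settle whether the numbers pair the libraries. With the replicate number as a block (replicate block) 0 genes were called with and without EV replicate 3, with 997 and 529 at an unadjusted p under 0.05, and 0 in the test of tissue differences.

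The interferon median ran from -0.65 to -0.45 over the alternatives with all libraries and from -0.68 to -0.45 without EV replicate 3. The endothelial median ran from 0.22 to 0.35 and from 0.20 to 0.42, and the mural median from 0.27 to 0.50 and from 0.19 to 0.43. The median of microglial genes ran from -0.32 to 0.03 without EV replicate 3, and was 0.03 when EV replicate 2 was left out as well.

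Single genes near 0 turned direction. App was 0.025 with quantile normalization, and 0.022 so without EV replicate 3, and Ifit2 was 0.0035 with median scaling. When single libraries were left out of all, Cd36 ran from -0.23 to 0.37, Ifit2 from -0.054 to 0.055, Stat2 from -0.20 to 0.26, Cldn5 from -0.0029 to 0.30, Ly6c1 from -0.17 to 0.078 and Higd1b from -0.27 to 0.073. When single libraries were left out in addition to EV replicate 3, App ran from -0.023 to 0.00051, Thy1 from -0.23 to 0.05, Cd36 from -0.15 to 0.77, Cldn5 from -0.15 to 0.44, Ly6c1 from -0.32 to 0.15 and Higd1b from -0.29 to 0.38. So did Tyrobp (-0.25 to 0.012), Ctss (-0.32 to 0.054), Egr1 (-0.62 to 0.18), Penk (-1.77 to 0.66) and S100a9 (-0.86 to 1.79). Of 1298 single-gene values under the alternatives with all libraries 13 changed sign, and of 1211 without EV replicate 3, 15 did.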

Other observations

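Other cell types gave small or uneven values. Oligodendrocyte and myelin genes (15 tested) had a median log2 difference of 0.03, and -0.02 without EV replicate 3. Astrocyte genes (12 tested) had a median of 0.15 and 0.06, and precursors of oligodendrocytes -0.01 and 0.08 (10 tested). Meningeal fibroblast genes (9 tested) were 0.37 with all libraries and 0.13 without EV replicate 3, in which their sum was 88.3 FPKM against 36.2 to 62.4 in the other 5 libraries of the comparison. Cholesterol synthesis genes (24 tested) had medians of -0.10 and -0.03, genes of the unfolded protein and heat shock response (19 tested) -0.07 in both, and circadian clock genes (15 tested) 0.11 and 0.06. Cytokine and NF-kB genes (17 tested) had medians of 0.11 and 0.08, with 0 of 17 below throughout.

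Clec4e, a C-type lectin receptor of myeloid cells, stood at 1.24, 0.817 and 0.826 FPKM with EV, at 0.506, 0.0105 and 0 with PBS and at 0.675 to 0.707 in wildtype. Its 3 PBS libraries were below all 6 others.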
